A study of Rattus norvegicus with 12 samples.

Results

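Transcripts of 9 amino acid transporter genes, namely Slc7a1, Slc7a5, Slc7a6, Slc7a11, Slc3a2, Slc1a4, Slc1a5, Slc38a1 and Slc38a2, were measured in tumour-derived and adherent F111 cells. The genes were taken by name, each with every probe set to which the platform annotation gave that symbol alone, which made 13 probe sets out of 31042 and 9 genes out of 14217. F111 is a fibroblast line of the rat. Tumor cells were cultured out of tumours that had grown for 3 months in nude mice after subcutaneous injection of F111 cells kept in suspension, and A16 cells were F111 cells plated on plastic for 16 h. Both groups came from the same line, and the tumour explants had passed through a mouse host, whose own cells were not measured apart. The study reports that their karyotypes differed. A derivative of chromosome 2 was seen in a minority of A16 cells and in all tumour-derived cells, in which other chromosomal abnormalities were also increased. Karyotype and group therefore cannot be told apart. The sources give the same medium for both groups but differ on the serum given to the explants, so that serum and group cannot be told apart. Each group had 3 Affymetrix rat arrays, called replicate 1, replicate 2 and technical replicate 2, and n = 2 per group. The labels give the technical array no biological number, and its averaging with replicate 1 is an assumption. It was made because replicate 1 is the only other array with a technical number. Where a result is given without replicate 1, both arrays of that average were left out. Values are log2 intensity after RMA, a summary of the probes of each probe set, and differences are Tumor minus A16 with the standard error (SE). Levels of different probe sets are not comparable, since each binds its transcript with its own strength, and in bulk RNA fewer cells of a type and less RNA per cell cannot be told apart.

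Amino acid transporters bring into the cell the building blocks of protein and of glutathione, the main small antioxidant. The protein of Slc3a2 is a heavy chain that carries several light chains of the Slc7 family to the cell surface, among them those of Slc7a5, Slc7a6 and Slc7a11. Such pairs are exchangers, which bring one amino acid in as another goes out, whereas the proteins of Slc38a1 and Slc38a2 move glutamine and other neutral amino acids in together with sodium. In mammalian cells many of these genes are switched on through the transcription factor ATF4 when amino acids are short.

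For 8 of the 9 genes, windows from 250 bases before to 50 bases after the start of the transcript were taken from RefSeq (GRCr8 assembly). There were 9 windows, because Slc3a2 has 2 starts. No window was available for Slc1a5, so that gene was not searched. Windows of 4 genes whose transcripts differed between the groups are printed, for Slc7a5 (chr19:66872363-66872662, minus strand) and Slc1a4 (chr14:98761513-98761812, minus strand), both lower in Tumor cells, and for Slc7a11 (chr2:136668215-136668514, minus strand) and Slc38a2 (chr7:129742570-129742869, minus strand), both higher. Capitals mark matches to the motifs described after the sequences.
Slc7a5: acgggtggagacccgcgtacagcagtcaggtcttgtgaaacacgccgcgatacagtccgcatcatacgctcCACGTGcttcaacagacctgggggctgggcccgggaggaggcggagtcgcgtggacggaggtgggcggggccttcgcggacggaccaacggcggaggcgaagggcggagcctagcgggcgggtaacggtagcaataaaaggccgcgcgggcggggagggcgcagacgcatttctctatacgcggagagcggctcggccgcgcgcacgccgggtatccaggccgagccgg
Slc1a4: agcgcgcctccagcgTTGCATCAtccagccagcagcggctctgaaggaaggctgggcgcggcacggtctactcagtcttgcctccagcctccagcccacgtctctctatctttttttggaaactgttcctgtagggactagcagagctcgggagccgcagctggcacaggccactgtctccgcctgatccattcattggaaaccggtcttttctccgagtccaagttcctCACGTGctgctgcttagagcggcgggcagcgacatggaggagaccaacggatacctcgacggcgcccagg
Slc7a11: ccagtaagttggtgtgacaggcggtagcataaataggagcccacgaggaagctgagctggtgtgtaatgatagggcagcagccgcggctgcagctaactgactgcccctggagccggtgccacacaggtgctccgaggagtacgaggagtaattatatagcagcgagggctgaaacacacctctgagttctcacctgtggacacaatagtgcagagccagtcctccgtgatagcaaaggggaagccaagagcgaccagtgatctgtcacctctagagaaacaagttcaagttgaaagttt
Slc38a2: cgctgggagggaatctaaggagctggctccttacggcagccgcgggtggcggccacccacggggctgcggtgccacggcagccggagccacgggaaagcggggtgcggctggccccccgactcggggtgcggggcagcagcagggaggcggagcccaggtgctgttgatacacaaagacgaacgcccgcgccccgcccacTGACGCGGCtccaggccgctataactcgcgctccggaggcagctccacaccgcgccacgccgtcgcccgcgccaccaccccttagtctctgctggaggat

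Searched on both strands were the core of the amino acid response element TGATGNAA, which ATF4 binds with a partner, the E-box CACGTG, which MYC binds with MAX, and the core of the antioxidant response element TGACNNNGC, which NRF2 binds. These letters were found in 3.98%, 6.42% and 12.1% of 33469 promoter windows of the same length. The amino acid response core was matched in the windows of Slc1a4 (TTGCATCA, 235 bases before the start, on the other strand), Slc7a1 (TGATGAAA, 30 bases before the start) and Slc38a1 (TGATGCAA, 142 bases before the start). The E-box was matched in Slc7a5 (179 bases before the start) and Slc1a4 (20 bases before the start). The antioxidant core was matched in Slc38a2 (TGACGCGGC, 50 bases before the start), in Slc7a1 (GCGCTGTCA, 107 bases before the start, on the other strand) and in 1 of the windows of Slc3a2 (GCGGAGTCA, 45 bases before the start, on the other strand). The windows of Slc7a11 and Slc7a6 held none of these letters. A match is a description of the letters and was not tested as a site.

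In Tumor cells the transcripts of the heavy chain Slc3a2, of its partner Slc7a5 and of the neutral amino acid exchangers Slc1a5 and Slc1a4 were lower than in A16 cells, by 1.40-fold to 2.16-fold. Transcripts of the cystine carrier Slc7a11 and of the sodium-coupled carrier Slc38a2 were higher, by 1.88-fold and 1.74-fold. Slc7a6, Slc38a1 and the brightest probe set of Slc7a1 did not pass the test. Counted by the brightest probe set of each gene, 2 of the 9 genes were higher and 4 lower at an adjusted p under 0.05 (limma, Benjamini-Hochberg adjustment over all probe sets), whereas 17.4% of all 14217 genes were higher and 16.6% lower by the same rule. With a fold of at least 2 required as well, referred to here as called, 0 were higher and 1, Slc7a5, was lower, against 5.45% and 5.44% of all genes. The 3 Tumor arrays lay wholly on one side of the 3 A16 arrays for 6 of the 9 genes, and for 55.9% of all genes. The median difference of the 9 genes was -0.21, and that of all genes 0.03.

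**Figure D1:**
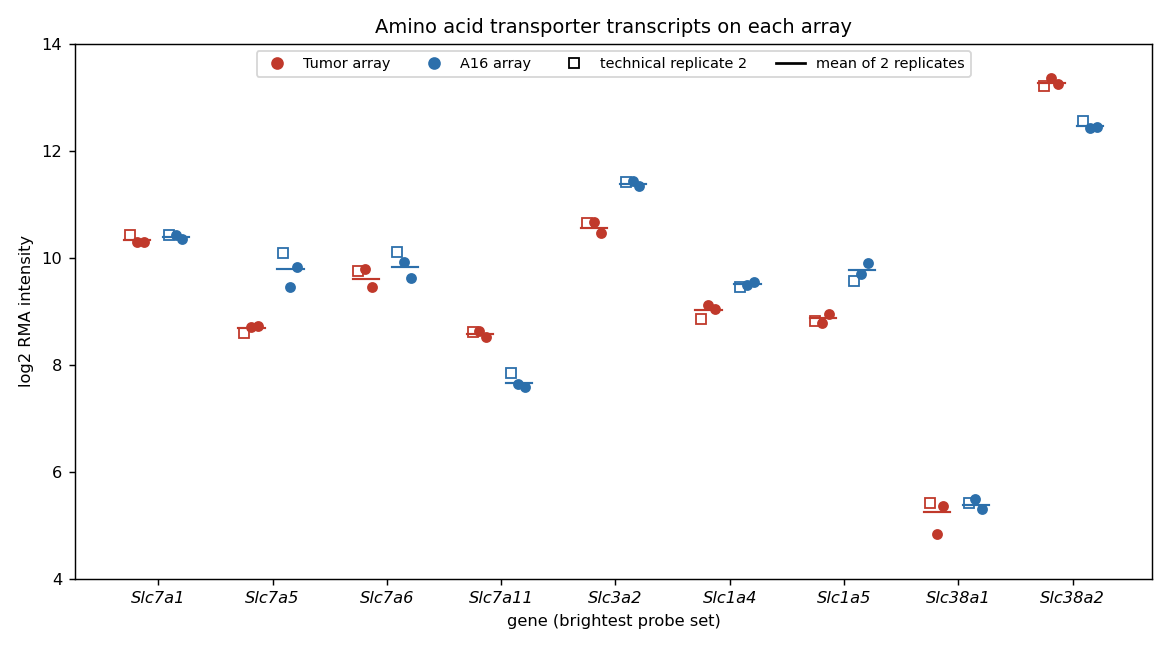
Each transporter gene (horizontal axis) is shown by its brightest probe set in log2 RMA intensity (vertical axis), with Tumor arrays in red left of A16 arrays in blue, circles for replicates 1 and 2, open squares for technical replicate 2 and lines for the mean of the 2 replicates. Tumor arrays lie below A16 arrays for Slc7a5, Slc3a2, Slc1a4 and Slc1a5, above them for Slc7a11 and Slc38a2, and among them for Slc7a1, Slc7a6 and Slc38a1.

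Among the light chains of the Slc7 family, Slc7a5 encodes LAT1, which imports leucine and other large neutral amino acids. Its probe set read 8.70, 8.73 and 8.60 on Tumor replicate 1, replicate 2 and technical replicate 2, against 9.45, 9.83 and 10.09 on the same arrays of A16. The Tumor arrays were all lower, and the A16 arrays were the more widely spread, with technical replicate 2 at the top. The difference was -1.11 ± 0.11 (SE, n = 2 per group, 2.16-fold lower, limma adjusted p = 0.000661). A16 replicate 1 (9.45) and technical replicate 2 (10.09) were averaged first, so the spread between them does not enter this SE or p. PLIER, the other summary of the same arrays, gave -1.23. With the technical arrays left out the difference was -0.93, which passed the test but not the 2-fold threshold.

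Slc7a11 encodes xCT, which imports cystine in exchange for glutamate and so supplies cysteine for glutathione. It moved the other way from Slc7a5 although both proteins need the same heavy chain. Tumor arrays read 8.64, 8.53 and 8.62, and A16 arrays 7.64, 7.59 and 7.85, so that the lowest Tumor array was above the highest A16 array. The difference was 0.91 ± 0.12 (SE, n = 2 per group, 1.88-fold higher, limma adjusted p = 0.00184), and 0.96 with PLIER.

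Slc7a6 encodes y+LAT2, an exchanger of basic for neutral amino acids that also pairs with the heavy chain. It read 9.79, 9.46 and 9.75 on Tumor arrays, against 9.92, 9.63 and 10.11 on A16 arrays. These values overlapped, and in both groups replicate 2 was the lowest array. The difference of -0.21 ± 0.17 did not pass the test (SE, n = 2 per group, limma adjusted p = 0.423).

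The heavy chain itself, Slc3a2, also known as CD98hc, read 10.67, 10.47 and 10.65 on Tumor arrays and 11.43, 11.35 and 11.42 on A16 arrays. All Tumor arrays were lower, and the 3 arrays of each group lay close together. The difference was -0.83 ± 0.12 (SE, n = 2 per group, 1.77-fold lower, limma adjusted p = 0.00301), and -0.77 with PLIER. Of the light chains among the 9 genes, Slc7a5 was lower, Slc7a11 was higher and Slc7a6 did not pass the test. Light chains of the same heavy chain outside the 9 genes, named after their values were seen, were Slc7a7, Slc7a8 and Slc7a10. They differed by 0.20, 0.14 and 0.04, in that order, none past the test with RMA. All were near the floor, at 5.75, 5.62 and 5.70 in Tumor and 5.55, 5.49 and 5.66 in A16. PLIER put Slc7a8 at 1.26 (limma adjusted p = 0.00288).

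Slc1a5 encodes ASCT2, an exchanger known for its uptake of glutamine. Its Tumor arrays read 8.79, 8.95 and 8.82, against 9.70, 9.90 and 9.56 in A16. The groups did not overlap, and the difference was -0.89 ± 0.14 (SE, n = 2 per group, 1.85-fold lower, limma adjusted p = 0.00379). Under PLIER it was -1.05, or 2.08-fold lower, past the 2-fold threshold that it missed with RMA. Slc1a4 encodes ASCT1, a related exchanger of alanine, serine and cysteine. It read 9.12, 9.05 and 8.86 in Tumor and 9.49, 9.55 and 9.45 in A16, again without overlap. The difference was -0.49 ± 0.11 (SE, n = 2 per group, 1.40-fold lower, limma adjusted p = 0.0162). That was the smallest difference of the 6 genes past the test, and it no longer passed without Tumor replicate 1 (-0.46, limma adjusted p = 0.119) or without Tumor replicate 2 (-0.52, limma adjusted p = 0.0821).

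Slc38a2 encodes SNAT2, a sodium-coupled carrier of small neutral amino acids that cells are known to make more of when amino acids are short. Its probe set read 13.37, 13.25 and 13.22 on Tumor arrays, against 12.43, 12.45 and 12.56 on A16 arrays. Every Tumor array was higher. The difference was 0.80 ± 0.11 (SE, n = 2 per group, 1.74-fold higher, limma adjusted p = 0.0022), and 0.77 with PLIER. With a mean level above that of 99.2% of all probe sets it was among the brightest on the arrays.

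Slc38a1, the neighbour of Slc38a2 on chromosome 7 with 0 protein-coding genes between them in RefSeq, encodes SNAT1, a related carrier of glutamine. Its 3 probe sets were all dim, at the 24.5, 17.7 and 14.1 percentile of mean level. The brightest, 1370409_at, read 4.83, 5.36 and 5.41 on Tumor arrays and 5.49, 5.30 and 5.41 on A16 arrays, while probe sets for the bacterial Trp transcript, which was not added to the samples, averaged 4.21 in Tumor and 4.25 in A16. The difference was -0.13 ± 0.13 (SE, n = 2 per group, limma adjusted p = 0.512) with RMA but 0.66 with PLIER (limma adjusted p = 0.0627), so that its direction depended on the summary. The other probe sets gave -0.27 ± 0.17 (1390559_at) and 0.14 ± 0.11 (1372921_at), neither past the test with RMA. PLIER put 1372921_at past it, at 0.63 (limma adjusted p = 0.0371), and 1390559_at passed with RMA when A16 replicate 2 was left out (-0.51, limma adjusted p = 0.0173). No direction can be given for Slc38a1 at this signal.

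Slc7a1 encodes CAT1, which imports arginine and lysine without a heavy chain, and its 3 probe sets did not give 1 answer. The brightest, 1368391_at, read 10.30, 10.30 and 10.42 on Tumor arrays and 10.43, 10.35 and 10.43 on A16 arrays, a difference of -0.06 ± 0.11 (SE, n = 2 per group, limma adjusted p = 0.748). A second, 1368392_at, read 8.42, 8.37 and 8.25 on Tumor arrays, against 10.39, 10.41 and 10.27 on A16 arrays. It was thus lower on every Tumor array, with a difference of -2.02 ± 0.11 (SE, n = 2 per group, 4.06-fold lower, limma adjusted p = 6.5e-05). Taken within each array, the reading of 1368392_at less that of 1368391_at was -1.88, -1.94 and -2.17 in Tumor and -0.04, 0.06 and -0.15 in A16, so the change between the groups was unequal for these probe sets.

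The third probe set of Slc7a1, 1387167_at, was dimmer, at 5.42, 5.42 and 5.27 on Tumor arrays and 6.53, 7.44 and 6.06 on A16 arrays. It was also lower in Tumor, with a difference of -1.49 ± 0.34 (SE, n = 2 per group, 2.80-fold lower, limma adjusted p = 0.0169). Its size rested on A16 replicate 2, the highest array, without which it was -0.91 (limma adjusted p = 0.000406), and it was -2.06 without A16 replicate 1. It lost the test without Tumor replicate 1 (limma adjusted p = 0.0806) or Tumor replicate 2 (limma adjusted p = 0.0662). PLIER gave -0.16, -2.21 and -1.59 for the 3 probe sets, in the same order. Of the 13 member probe sets, 3 were called, all lower, namely 1368392_at and 1387167_at of Slc7a1 and the probe set of Slc7a5, against 6.39% of all probe sets called lower.

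Array controls of RNA quality differed between the groups. The 3′ probe set of beta-actin exceeded the 5′ one by 2.30 (2.25 to 2.37) in Tumor and by 0.67 (0.64 to 0.71) in A16, and for GAPDH by 0.29 in Tumor and -0.03 in A16. Of 4525 genes with several probe sets, 926 (20.5%) had a dimmer one whose difference was at least 1 log2 below that of the brightest. A dimmer probe set at least 1 log2 above was found in 309 (6.83%), so a gap of at least 1 log2 was not rare. The gap of Slc7a1 between 1368392_at (-2.02) and 1368391_at (-0.06) was wider. The share of genes with a gap that wide was not counted. Where the Slc7a1 probe sets lie in the transcript is not given in the sources used here, and the part of RNA quality in their disagreement was not tested.

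**Figure D2:**
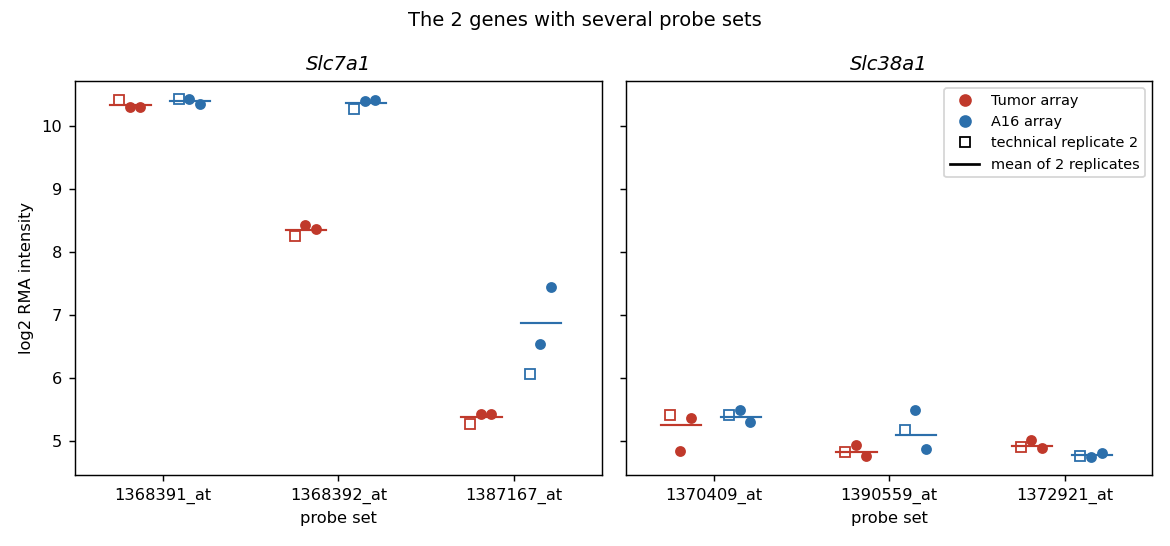
Log2 RMA intensity (vertical axis) of the 3 probe sets each of Slc7a1 (left panel) and Slc38a1 (right panel), with Tumor arrays in red left of A16 arrays in blue, circles for replicates 1 and 2, open squares for technical replicate 2 and lines for the mean of the 2 replicates. Tumor and A16 coincide at 1368391_at, where the difference is -0.06, and part at 1368392_at, where it is -2.02, while all Slc38a1 values lie at or under 5.49.

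**Figure D3:**
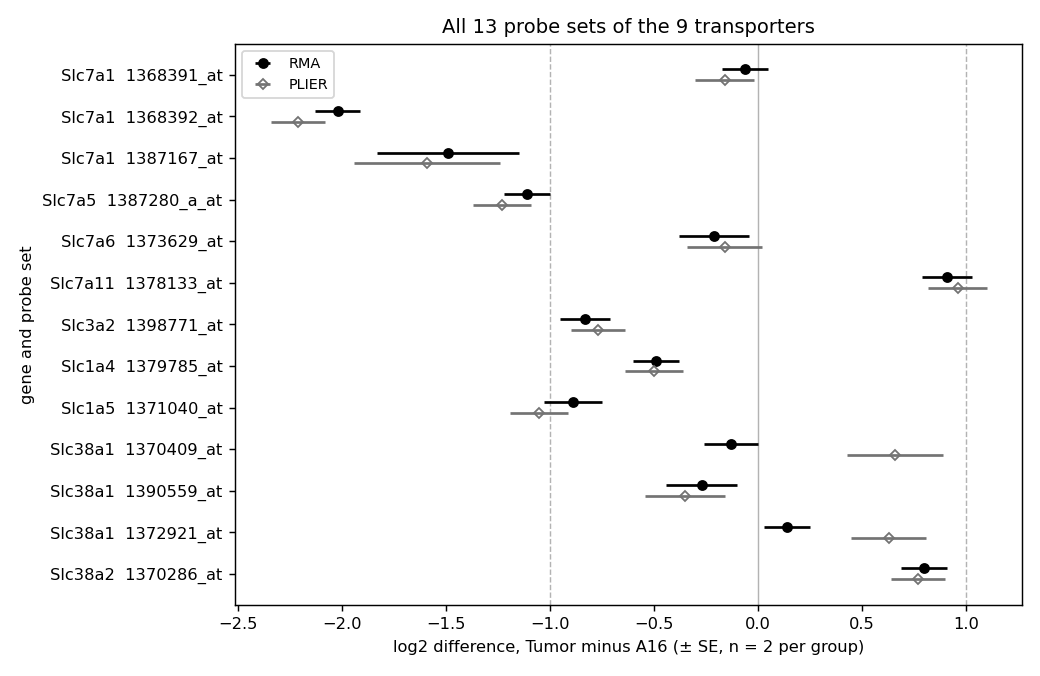
Log2 difference, Tumor minus A16 (horizontal axis, bars ± SE, n = 2 per group), for all 13 probe sets of the 9 transporters (vertical axis), by RMA (black circles) and PLIER (grey diamonds), with dashed lines at a 2-fold change. The summaries give the same sign for every probe set except 1370409_at of Slc38a1, at -0.13 by RMA and 0.66 by PLIER.

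Beyond these genes, 46 of 52 other amino acid transporters had a probe set of their own, with a median difference of 0.05. Many of them read near the floor in both groups, where little difference can be seen. Examples, chosen after their values were seen, were Slc7a13 (4.53 in Tumor and 4.43 in A16) and Slc6a14 (3.92 in Tumor and 3.86 in A16). Of the 46, 3 were called higher and 2 lower, against 5.45% and 5.44% of all genes. The largest difference was that of Slc1a3, a glutamate transporter best known from glia. Slc1a3 read 9.09, 8.56 and 9.23 on Tumor arrays and 5.94, 6.15 and 6.55 on A16 arrays, a difference of 2.66 ± 0.20 (SE, n = 2 per group, 6.32-fold higher, limma adjusted p = 0.00023). Its 2 dimmer probe sets were also higher, by 1.07 and 0.38. The taurine transporter Slc6a6 was higher by 2.20 ± 0.12 (SE, n = 2 per group, 4.6-fold, limma adjusted p = 5.66e-05), at 9.30, 9.39 and 9.39 in Tumor against 7.19, 7.09 and 7.29 in A16.

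Slc3a1, the heavy chain that resembles Slc3a2 and in kidney forms a cystine carrier with the light chain Slc7a9, was higher by 1.44 ± 0.22 (SE, n = 2 per group, limma adjusted p = 0.00353), at 7.05, 7.81 and 7.22 in Tumor and 6.15, 5.96 and 6.06 in A16. The heavy chains Slc3a1 and Slc3a2 therefore moved in opposite directions. Slc7a9, chosen after its value was seen, differed by 0.92 (limma adjusted p = 0.00412). Lower in Tumor were Slc38a4, a sodium-coupled carrier of the same family as Slc38a2 (-1.40 ± 0.12, SE, n = 2 per group, limma adjusted p = 0.000418), and Slc38a7, a glutamine carrier of the lysosome (-1.04 ± 0.22, SE, n = 2 per group, limma adjusted p = 0.0129). Slc38a7 was no longer called without either Tumor replicate, or without A16 replicate 2, when it was -0.70. By their brightest probe sets the other 41 transporters lay between -0.66 and 0.92. Some dimmer probe sets lay below that range and none above it. Those of Slc6a9 (-1.59, against -0.08 for the brightest) and Slc25a13 (-1.02, against -0.23), named after their values were seen, were called lower.

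Many genes of the amino acid response, which ATF4 drives together with several of the transporters, were lower in Tumor cells. Of 28 measured of 29 listed, 1 was called higher and 9 lower, and at an adjusted p under 0.05 of any size 2 were higher and 15 lower, with a median of -0.66. Among all genes 5.45% were called higher and 5.44% lower, and 17.4% passed that adjusted p on the higher side and 16.6% on the lower. Cth, which makes cysteine from cystathionine, fell most, at 6.11, 5.57 and 5.93 in Tumor against 9.60, 9.50 and 9.60 in A16 (-3.76 ± 0.17, SE, n = 2 per group, limma adjusted p = 3.2e-05). Of the routes by which cells get cysteine, the transcript of the cystine importer Slc7a11 was higher and that of the enzyme Cth lower in the same cells. Pck2, the mitochondrial PEP carboxykinase, differed by -2.88 ± 0.16, Trib3, a pseudokinase that restrains ATF4, by -2.03 ± 0.15, and the lipoprotein receptor Vldlr by -1.68 ± 0.14 (SE, n = 2 per group). In the opposite direction was Chac1, which degrades glutathione, at 1.71 ± 0.14.

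Atf5, a transcription factor related to ATF4, read 8.41, 8.70 and 8.61 in Tumor and 10.20, 12.05 and 10.23 in A16, with A16 replicate 2 far above the other arrays. Its difference of -2.53 ± 0.52 (SE, n = 2 per group, limma adjusted p = 0.0118) became -1.61 when A16 replicate 2 was left out and -3.44 when A16 replicate 1 was, and it lost the test without Tumor replicate 1 (limma adjusted p = 0.0622). Atf4 itself and its target Asns, asparagine synthetase, were chosen after their values were seen. Atf4 differed by -0.76 (limma adjusted p = 0.0181) and Asns by -0.92 (limma adjusted p = 0.00188), both without overlap of the arrays.

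The aminoacyl-tRNA synthetases, which load imported amino acids onto tRNA, were lower nearly throughout. Of 19 measured of 20 listed, 0 were called higher and 3 lower, 14 were lower at an adjusted p under 0.05 and 0 higher, and the median was -0.59. Over all genes these rules gave 5.44% called lower and 16.6% past the adjusted p on the lower side. For 18 of the 19 the Tumor arrays all lay below the A16 arrays, as they did for 3880 of all 14217 genes. The called genes were Iars1 (-1.34 ± 0.13), Vars1 (-1.25 ± 0.13) and Eprs1 (-1.07 ± 0.15, SE, n = 2 per group), which load isoleucine, valine, and glutamate and proline. Dimmer probe sets of the called genes did not always follow, at 0.19 for Iars1, -0.12 for Vars1 and between -4.21 and 0.31 for Eprs1. The other synthetases here are named after their values were seen. Several had a dimmer probe set further down than the brightest, as Slc7a1 had. They were Mars1 (-2.99, against -0.87 for the brightest), Gars1 (-2.20, against -0.43), Hars1 (-1.81, against -0.58), Wars1 (-1.74, against -0.84) and Cars1 (-1.61, against -0.17). Dimmer probe sets of Kars1 (0.08, against -0.91), Farsb (-0.18, against -0.59) and Lars1 (-0.76, against -0.98) were less far down. Further dimmer probe sets of Cars1 were at -0.60 and -0.18. Without A16 replicate 2, Eprs1 was -0.89 and not called. Qars1, the glutamine enzyme and the highest of the list, was at 0.17.

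Enzymes of glutamine, glutamate and glutathione were mixed. Of 13 measured of 14 listed, 2 were called higher and 1 lower, 6 were higher and 1 lower at an adjusted p under 0.05, and the median was 0.09. Over all genes these rules gave 5.45% called higher and 5.44% lower, and 17.4% higher and 16.6% lower at that adjusted p. Oplah, which returns 5-oxoproline to glutamate, read 11.47, 11.75 and 11.37 in Tumor against 9.55, 10.04 and 9.73 in A16 (1.74 ± 0.18, SE, n = 2 per group, limma adjusted p = 0.000765). Ggt5, a gamma-glutamyl transferase that cleaves glutathione and its conjugates, was higher by 1.45 ± 0.11 (SE, n = 2 per group). Its dimmer probe set was at 0.28 and did not pass the test (limma adjusted p = 0.121). The glutaminase Gls2 differed by -1.22 ± 0.13 (SE, n = 2 per group). The other genes that passed were named after their values were seen, and all were higher, namely Ggct at 0.99, Gclc at 0.98, Ggt1 at 0.94 and Gclm at 0.55. Gclc and Gclm encode the subunits of the enzyme that joins glutamate to cysteine, the first step of glutathione synthesis, which uses the cysteine that Slc7a11 supplies. Gclc had a dimmer probe set at -0.37.

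Among 20 measured of 23 listed genes of the sensing of amino acids by mTORC1, the kinase complex that leucine imported through LAT1 is known to activate, 1 was called higher and 1 lower, 4 were higher and 5 lower at an adjusted p under 0.05, and the median was -0.08. The shares of all genes were 5.45% called higher and 5.44% called lower, and 17.4% higher and 16.6% lower at that adjusted p. Fnip1, which works with folliculin at the lysosome, was higher by 1.90 ± 0.20 (SE, n = 2 per group). Castor2, which belongs to the family of arginine sensors, differed by -1.16 ± 0.15 (SE, n = 2 per group). Without A16 replicate 1, Castor2 was -0.98 and no longer called.

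The last list held 12 known regulators of the transporters, of which 11 were measured. There 1 was called higher and 1 lower, 5 were higher and 1 lower at an adjusted p under 0.05, and the median was 0.40. For all genes the shares were 5.45% called higher and 5.44% lower, and 17.4% higher and 16.6% lower at that adjusted p. Mxi1, which competes with MYC for MAX, was higher by 1.46 ± 0.12 (SE, n = 2 per group). Its dimmer probe set was at 0.33 and did not pass the test (limma adjusted p = 0.137). Txnip, an arrestin-like protein known to limit glucose uptake, differed by -1.50 ± 0.18 (SE, n = 2 per group). Other regulators were chosen after their values were seen. Myc, whose protein is known to raise Slc7a5 and Slc1a5, was higher by 0.60 (limma adjusted p = 0.0069), and Nfe2l2, which encodes the NRF2 protein known to raise Slc7a11, was at -0.18 (limma adjusted p = 0.271). Hif1a was higher by 0.81 (limma adjusted p = 0.00277), and Nedd4l, a ubiquitin ligase of membrane transporters, by 0.99 (limma adjusted p = 0.001). Keap1 was at -0.07 by its brightest probe set, but a dimmer one was called lower, at -2.41 (limma adjusted p = 0.00345). Dimmer probe sets of Max (-0.42, against 0.46 for the brightest) and Cd44 (-0.55, against 0.40) also differed from the brightest, in sign. NRF2 and HIF-1 alpha are controlled chiefly as proteins, which these arrays do not measure.

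**Figure D4:**
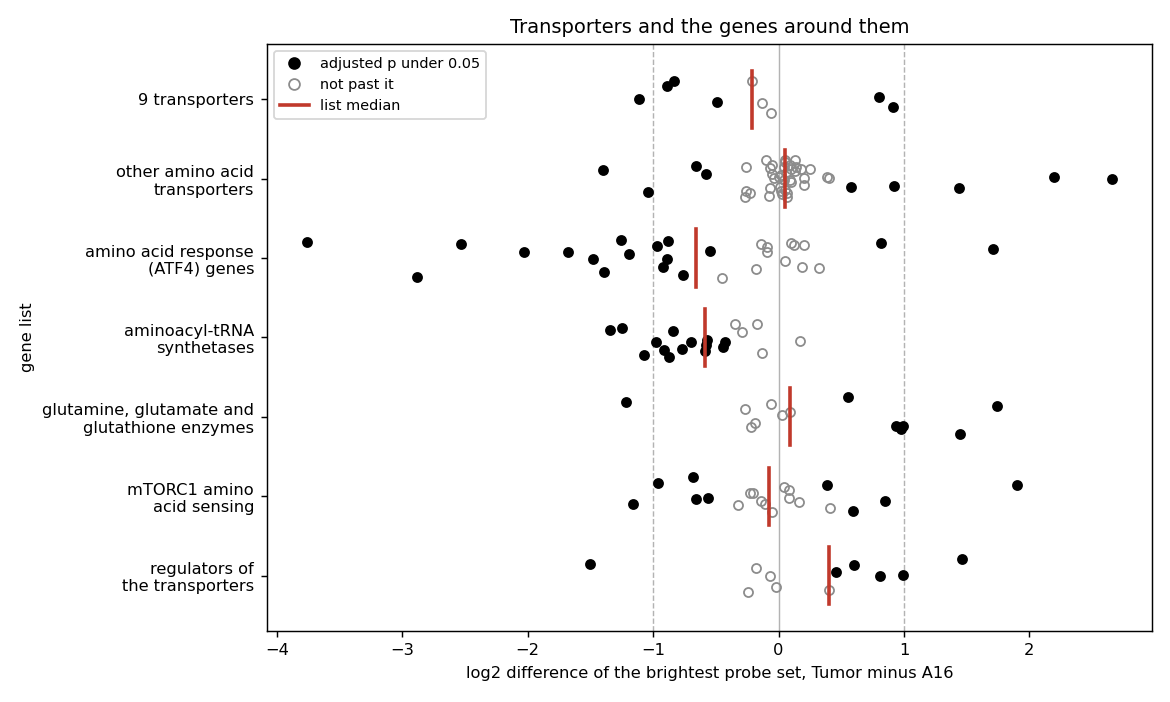
Log2 difference of the brightest probe set, Tumor minus A16 (horizontal axis), for each gene of the 9 transporters and 6 related lists (vertical axis, points spread at random in height), filled where the adjusted p was under 0.05, with red lines at list medians and dashed lines at a 2-fold change. The synthetases lie almost all left of 0, with a median of -0.59. The 46 other transporters cluster at 0, with a median of 0.05, and many of them read near the floor.

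Some cell type markers and array controls also differed between the groups. Among all genes 5.45% were called higher and 5.44% lower. Of 13 fibroblast markers 0 were called higher and 4 lower, their summed intensity was 62874 to 65198 on Tumor arrays and 92803 to 101405 on A16 arrays, and the called genes were Col1a1 (-3.46), Thy1 (-1.95), Col1a2 (-1.39) and Fn1 (-1.27). Vim, a marker of mesenchymal cells, stood at 14.19 in Tumor and 14.29 in A16. Of 10 leukocyte markers 2 were called higher, Csf1r by 3.14 and Cd68 by 1.07, with a summed intensity of 1751 to 1833 in Tumor and 1359 to 1516 in A16. The other 8 lay between -0.17 (Cd14) and 0.33 (Lyz2). Of these, named after their values were seen, Ptprc, which defines leukocytes, was near the floor at 5.06 in Tumor and 5.13 in A16. Adgre1 was also near it, at 4.11 in Tumor and 3.97 in A16, but was 0.78 higher with PLIER (limma adjusted p = 0.00583). Cd14 was bright in both groups, at 9.76 in Tumor and 9.93 in A16. Lyz2 read 6.90 in Tumor and 6.57 in A16. Of 6 epithelial markers 1 was called higher (Krt8, by 1.50). Their summed intensity was 2185 to 2416 in Tumor and 893 to 1023 in A16. That sum was mostly Krt8, at 11.02 in Tumor and 9.52 in A16. The other 5 lay between -0.34 (Krt14) and 0.93 (Cdh1). Cdh1, named after its value was seen, was dim at 5.87 in Tumor and 4.93 in A16 but passed the test (limma adjusted p = 0.00169). Of 6 endothelial, 7 skeletal muscle and 5 adipocyte markers 0 were called. Their summed intensities were 270 to 320, 4504 to 5411 and 174 to 183 in Tumor, against 225 to 250, 3614 to 4314 and 147 to 166 in A16. The muscle sum was mostly Myh1, named after its value was seen, at 12.09 in Tumor and 11.69 in A16. The poly-A spikes averaged 4.86 in Tumor and 7.65 in A16, and the hybridisation spikes 10.99 in Tumor and 9.95 in A16, so that labelling and group cannot be told apart. The part of these differences in the transporter values was not tested.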

How the data were processed

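Background adjustment was done in the scanner software and normalisation in Avadis, by the study's methods. RMA and PLIER are named in the submitters' processing notes without a version. The authors deposited linear array intensity for both, and log2 was taken here. PLIER had a lowest value of 16 on every array, so its offset was taken as included. The 12 sample records are 6 arrays summarised 2 ways. Of 31099 probe sets, 57 were controls and 31042 were tested. The platform annotation gave 1 symbol to 20826, several to 436 and none to 9780, and 20758 were found by Entrez identifier in RefSeq (GRCr8), which gave chromosomes, gene order and promoter windows. The probe set with the highest mean RMA value stood for a gene.

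Tumor was compared with A16 by lmFit and eBayes of limma 3.58.1 (R 4.3.3), two-sided, with p-values adjusted by Benjamini-Hochberg over every tested probe set. Called means an adjusted p under 0.05 and at least 2-fold. Replicates are not stated to be separate cultures or animals, so p-values measure the spread between these samples, which may be technical. The few arrays limit the precision. The fit was tested on simulated data. The members and gene lists were chosen with earlier results of these data known. All member probe sets and, of each other list, the called genes (up to 6 by size) were to be named, and a gene named otherwise is said to be chosen after its value was seen. Alternatives were PLIER, its offset, the use of technical replicate 2, leaving out each replicate, a filter at the 30th percentile, the mean of a gene's probe sets, quantile normalization, a replicate block and the methods' t-test.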

Additional observations from a re-analysis of the deposited data

How the results depend on the processing

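Directions of the member differences held under the 12 or 13 other settings run for each probe set except for Slc38a1 1370409_at, which was 0.66 with PLIER and 1.14 with PLIER at an offset of 1. The filter on dim probe sets gave no value for Slc38a1. Leaving out a replicate left 1 sample in its group, which was assumed to vary like the other group. Replicate 1 was there its average with technical replicate 2, so leaving it out removed both arrays. Over all member values, 157 kept direction and side of the threshold, 3 newly passed, 6 no longer passed and 2 reversed. The 1 member gene called, Slc7a5, became 2 genes with PLIER, 3 with an offset of 1, 2 with the mean of probe sets (Slc7a1 then at -1.19), 2 with quantile normalization and 0 with the technical arrays left out, and leaving out each replicate gave 1 to 2. The 3 called member probe sets became 5 with an offset of 1, 2 with the technical arrays left out and 2 with the methods' t-test (which Slc7a1 1387167_at did not pass), and leaving out each replicate gave 2 to 4.

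With an offset of 1, 5764 probe sets were called (3113 of them higher) in place of 3694 (1709 higher and 1985 lower), and 5 enzymes of glutamine, glutamate and glutathione in place of 3, a number also reached with the technical arrays averaged with replicate 2. Without Tumor replicate 2 it was 5 as well, and leaving out each replicate gave 3 to 5. With the mean of probe sets 5 synthetases were called in place of 3. The methods' t-test called 3 other transporters in place of 5. After Benjamini-Hochberg adjustment it left 12 probe sets (4 higher and 8 lower), none of them a member or a gene of the 6 related lists (0 each), and 0 members past the adjusted p. With 2 replicates per group that test has few degrees of freedom. The cause of the other changes was not tested.

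With replicate number as a replicate block, 3750 probe sets were called (1715 higher and 2035 lower), 6 members passed the adjusted p and 1 was called. Deviations of same-numbered arrays from their group means correlated at 0.1205 over 31042 probe sets, but the samples share only a number, with 2 numbers in all. The block changed no member's call. Signal near the floor, as for Slc38a1, limits what can be seen and understates a fold.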
